A study of Mus musculus with 2 samples.

Results

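The cells described here were non-cycling, Col10a1-low, Sox9+ Acan+ chondrocyte-like cells of the mouse femoral metaphysis with little Sfrp5, Cpm or Hhip. Members were chosen from single-cell counts by a rule with fixed limits. A barcode was kept with 200 to 6000 genes and at most 10% mitochondrial UMIs (unique molecular identifiers, the count of captured mRNA molecules). A kept cell was a member if it had no UMI of the leukocyte gene Ptprc, at least 1 UMI of Sox9, at least 5 UMIs of Acan per 10000, under 20 of Col10a1 per 10000, fewer than 2 of 11 cell cycle genes detected, and under 2 UMIs of Sfrp5, Cpm and Hhip together per 10000. This gave 110 members of 1766 kept cells out of 3428 barcodes, 17 in the vehicle library and 93 in the teriparatide library. The rule came from earlier results on the same cells under the working name of Chad-type columnar-like chondro-progenitors, a name that the Chad levels of the vehicle library did not bear out.

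Both libraries came from Gli1-CreERT2; Ai9 mice on a mixed background, 1 month of age, in which tamoxifen on 3 days switched on tdTomato in Gli1-expressing cells and their progeny. One group then received vehicle and the other teriparatide, the active fragment of parathyroid hormone, at 400 ng per g body weight by intraperitoneal injection, daily for 3 days. Cells that were tdTomato+ and CD31-, CD45- and Ter119- were sorted from crushed and digested femoral metaphysis and captured with 10x 3' chemistry (v2). The study's methods name 5 mice per group (3 male and 2 female), and the labels give 1 library for each treatment, so every comparison of treatments below sets 1 library against 1 library. No test across samples exists for such a design. The intervals are 95% intervals that cover counting error only, not the spread between mice. Those on summed UMIs also leave out the spread between the cells of a library.

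Growth plate chondrocytes are arranged in zones. Slowly dividing resting cells next to the epiphysis feed columns of flat proliferating cells, which stop dividing, become prehypertrophic, express Ihh and Pth1r, and then enlarge and deposit Col10a1. Sox9 is the transcription factor that drives the cartilage programme, Acan encodes the main cartilage proteoglycan, and Chad (chondroadherin) encodes a leucine-rich matrix protein that binds collagen and integrins. Ihh from prehypertrophic cells and PTHrP from resting cells act on the Gli factors and on Pth1r, the receptor that teriparatide also binds. The study's authors discarded the growth plate and held their chondrocyte-like cluster unlikely to be ordinary growth plate cells. They named it an osteoprogenitor because most of its cells expressed Runx2 and Sp7. Here a Runx2 UMI was seen in 16 of 17 vehicle and 78 of 93 teriparatide members. For Sp7 it was 11 of 17 and 71 of 93.

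Members were deeply sequenced relative to the other kept cells. Their median was 32712 UMIs and 5209 genes per cell in the vehicle library, and 31570 UMIs and 4696 genes in the teriparatide library, against medians of 10875 and 14556 UMIs over all kept cells. Summed over members, the vehicle library held 573550 UMIs and the teriparatide library 2946763, so the vehicle values carry the wider intervals. The libraries as deposited held 10567335 UMIs in 1286 barcodes and 26270041 UMIs in 2142 barcodes, and 2 barcode sequences occurred in both, neither of them in a member. The libraries also differed in sex make-up. Of kept cells with a call from Xist or Y-linked transcripts, 52.6% were male in the vehicle library and 82.1% in the teriparatide library. All 17 vehicle members were male, while the teriparatide members were 85 male, 6 female and 2 without a call, so no comparison of treatments could be made within female members.

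Members made up 3.1% of kept vehicle cells (17 of 549, Clopper-Pearson interval 1.81 to 4.91) and 7.64% of kept teriparatide cells (93 of 1217, 6.21 to 9.28), a difference of 4.55 points (Newcombe interval 2.28 to 6.54). Among male cells the shares were 7.98% (17 of 213) and 11.8% (85 of 722), and the difference of 3.79 points had an interval that included 0 (-1.13 to 7.69). Female cells held 0 members of 192 in the vehicle library (0 to 1.90%) and 6 of 157 in the teriparatide library (3.82%, 1.42 to 8.13). The difference in female cells was 3.82 points, with an interval above 0 (0.98 to 8.09). Within the Sox9+ Acan+ gate below the Col10a1 limit, members were 30.4% of 56 vehicle cells and 37.8% of 246 teriparatide cells, a difference of 7.45 points (-6.78 to 19.6). The larger share over all kept cells thus went with a larger gate (10.2% and 20.2% of kept cells). The sort, the dissection and the shares of other cells captured set these denominators too, and their part was not tested.

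The limits of the rule cut through a continuum. The member nearest the Acan limit had 5.00 UMIs per 10000 and the nearest cell outside it 4.77. For Sfrp5, Cpm and Hhip together these values were 1.996 inside and 2.06 outside, with 19 members at 1 or more and 27 other cells from 2 to under 4. One cell cycle gene was detected in 51 members, and 20 cells that met the other limits had exactly 2. The Col10a1 limit lay in a gap, with 8.47 per 10000 inside and 20.5 outside. The cells on the other side of the Sfrp5, Cpm and Hhip limit are called resting-like here (24 vehicle and 103 teriparatide cells), and those with 2 or more cell cycle genes are called cycling (15 and 50 cells, of which 12 and 36 were below the Sfrp5, Cpm and Hhip limit).

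Chad (ENSMUSG00000039084, chr11:94565047-94569127 on the + strand of GRCm38), which gave the class its working name and was not used by the rule, was well above the level of resting-like cells in the teriparatide library only, and cycling cells came close to members in both. In the vehicle library members held 514 CPM of Chad (UMIs per 1000000 summed UMIs, Poisson interval 457 to 577), next to 499 in resting-like and 491 in cycling cells. In the teriparatide library they held 3100 CPM (3037 to 3165), next to 457 in resting-like and 2405 in cycling cells, log2 ratios of members over them of 2.76 (2.67 to 2.85) and 0.37 (0.31 to 0.42). Between libraries the members' Chad ratio was 2.59 on the log2 scale (2.42 to 2.76), or 6.03-fold higher with teriparatide, and in cycling cells it was 2.29 (2.1 to 2.49). In resting-like cells it was -0.13 (-0.32 to 0.06), an interval that includes no difference. Since Chad did not mark the class in vehicle cells, the class is named below by its rule, as Sfrp5/Cpm/Hhip-low cells or members.

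Single cells showed the same picture. Chad ranged from 0 to 4464 CPM over the 17 vehicle members, with a median of 164, and from 0 to 12426 CPM over the 93 teriparatide members, with a median of 2032. The ranges overlapped, yet 86 of 93 teriparatide members lay above the vehicle median and only 1 of 17 vehicle members lay above the teriparatide median. That 1 cell, at 4464 CPM, carried much of the vehicle level: without it the vehicle members held 347 CPM, and the next highest cell had 1164 CPM. After each cell was thinned to 5000 UMIs, Chad was seen in 58.8% of vehicle and 92.4% of teriparatide members. No thinned erythroid cell of either library (22 and 105 cells), a cell type without Chad expression used as a gauge of free RNA, had a Chad UMI. Unthinned, Chad was seen in 0 of 35 and 3.62% of 138 erythroid cells with median depths of 9934 and 10713 UMIs, against 94.1% and 97.8% of members. Among male cells alone the ratio was 2.64.

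**Figure D1:**
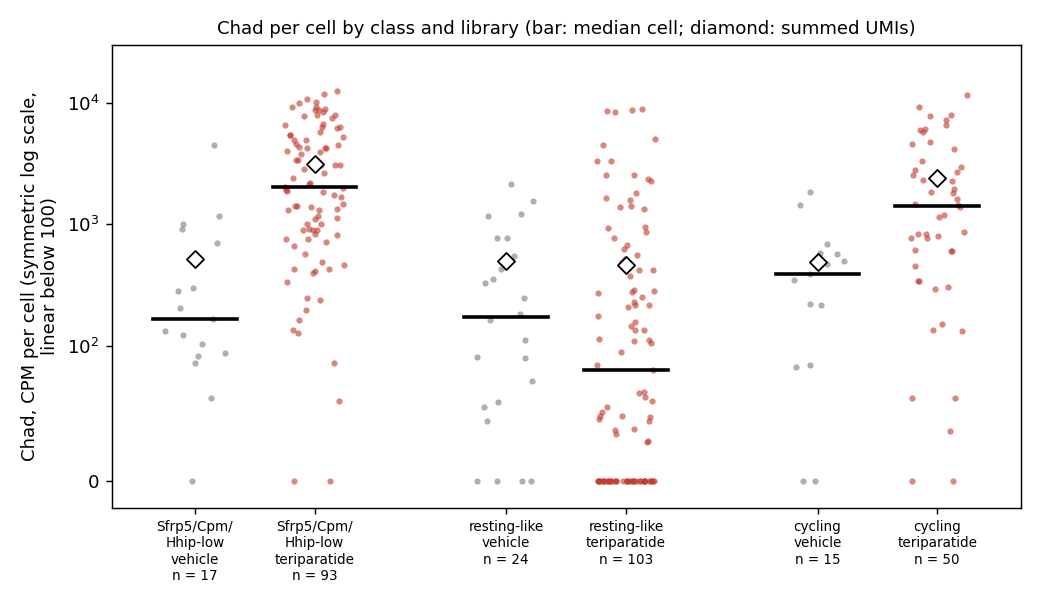
Chad in CPM per cell (vertical axis, symmetric log scale) for Sfrp5/Cpm/Hhip-low, resting-like and cycling chondrocyte-like cells of the vehicle (grey) and teriparatide (red) libraries. Each point is 1 cell, the bar is the median cell and the diamond the level over summed UMIs, which is 514 CPM in the vehicle and 3100 CPM in the teriparatide members.

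The promoters of Chad and of 3 other genes whose member levels were at least 2-fold higher in the teriparatide library under the rule (Stc2, Pth1r and Ihh) follow, so that the ratios can be set beside the regulatory sequence. PTH receptor signalling raises cAMP, and CREB-family factors bind the cAMP response element, whose half-site TGACG was searched on both strands (TGACG or CGTCA) and is in capitals where it occurs. Each run is the 250 bases before the RefSeq start on the gene's strand (build GRCm38.p6): Chad at chr11:94564797-94565046 (+), Stc2 at chr11:31370062-31370311 (-), Pth1r at chr9:110747146-110747395 (-) and Ihh at chr1:74951673-74951922 (-).
Chad: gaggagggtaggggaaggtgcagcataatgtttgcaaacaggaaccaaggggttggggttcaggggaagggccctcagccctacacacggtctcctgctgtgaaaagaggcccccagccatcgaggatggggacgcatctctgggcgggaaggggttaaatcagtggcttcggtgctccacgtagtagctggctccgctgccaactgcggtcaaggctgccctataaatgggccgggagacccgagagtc
Stc2: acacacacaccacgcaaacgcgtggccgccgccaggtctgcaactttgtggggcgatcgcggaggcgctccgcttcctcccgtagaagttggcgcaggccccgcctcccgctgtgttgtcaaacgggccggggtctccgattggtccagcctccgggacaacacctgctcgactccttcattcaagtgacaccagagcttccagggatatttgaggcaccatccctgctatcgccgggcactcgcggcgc
Pth1r: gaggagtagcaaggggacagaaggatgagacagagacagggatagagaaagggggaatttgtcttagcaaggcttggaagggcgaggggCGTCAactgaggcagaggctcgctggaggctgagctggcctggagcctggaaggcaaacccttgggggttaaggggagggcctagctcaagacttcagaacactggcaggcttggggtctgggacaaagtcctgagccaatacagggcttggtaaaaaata
Ihh: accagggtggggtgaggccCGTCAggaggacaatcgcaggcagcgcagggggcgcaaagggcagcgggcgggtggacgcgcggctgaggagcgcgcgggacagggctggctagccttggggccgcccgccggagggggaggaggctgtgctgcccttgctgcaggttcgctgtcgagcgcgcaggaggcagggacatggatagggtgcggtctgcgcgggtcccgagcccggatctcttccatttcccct
The half-site occurred in neither the Chad nor the Stc2 window. It occurred once in the Pth1r window, with its first base at -161 from the start, and once in the Ihh window, at -231. Of all 32851 promoters of this length 17.8% held it, and the full element TGACGTCA, which contains it, was in 1.55%. These matches are a description of the letters in the windows.

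Stc2 (ENSMUSG00000020303, chr11:31357307-31370074 on the - strand), a secreted glycoprotein of calcium and phosphate handling, was higher in the teriparatide library in members and also in resting-like (log2 1.78, 0.35 to 3.70) and cycling cells (1.75, 1.11 to 2.47). It stood at 41.8 CPM (26.8 to 62.3) in vehicle members and 272 CPM (254 to 292) in teriparatide members, a log2 ratio of 2.70 (2.12 to 3.35). Over vehicle members it ran from 0 to 223 CPM with a median of 0, and over teriparatide members from 0 to 2096 CPM with a median of 148. An Stc2 UMI was seen in 8 of 17 vehicle and 79 of 93 teriparatide members, and 36 of the latter lay above the highest vehicle cell. Unlike Chad, Stc2 also set members apart from resting-like cells in the vehicle library, where the log2 ratio of members over resting-like cells was 2.57 (1.03 to 4.56), resting on 24 and 4 UMIs. In the teriparatide library it was 3.49 (3.12 to 3.89).

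Comp and Epyc, the other matrix markers of the class, were carried by members of both libraries. Comp, a pentameric protein that organises collagen fibrils, stood at 6167 CPM in vehicle and 6246 CPM in teriparatide members, with a log2 ratio of 0.02 (-0.03 to 0.07). The Comp ratio was 0.59 (0.51 to 0.66) with no cell cycle gene allowed and -0.30 (-0.35 to -0.26) without the upper limit on genes. The cells ran from 822 to 15344 CPM (median 5411) with vehicle and from 444 to 29163 CPM (median 5271) with teriparatide, and 5 teriparatide cells lay above the highest vehicle cell. Resting-like cells held less Comp, 4039 and 2959 CPM. Epyc, a small leucine-rich proteoglycan of the growth plate, stood at 812 CPM in vehicle and 570 CPM in teriparatide members, a log2 ratio of -0.51 (-0.66 to -0.36) and short of 2-fold. Its median cell was at 690 CPM in the vehicle and 372 CPM in the teriparatide library, and resting-like cells held 215 and 320 CPM. Sox9 and Acan, which the rule asks for, stood at 872 and 950 CPM and at 3334 and 3235 CPM. The genes that the rule caps, whose values among members it selected, had ratios of -1.07 for Hhip (0.79 in resting-like and 0.77 in cycling cells), -2.85 for Sfrp5 and -0.94 for Cpm. Col2a1, the main cartilage collagen, was at 48569 and 44779 CPM.

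**Figure D2:**
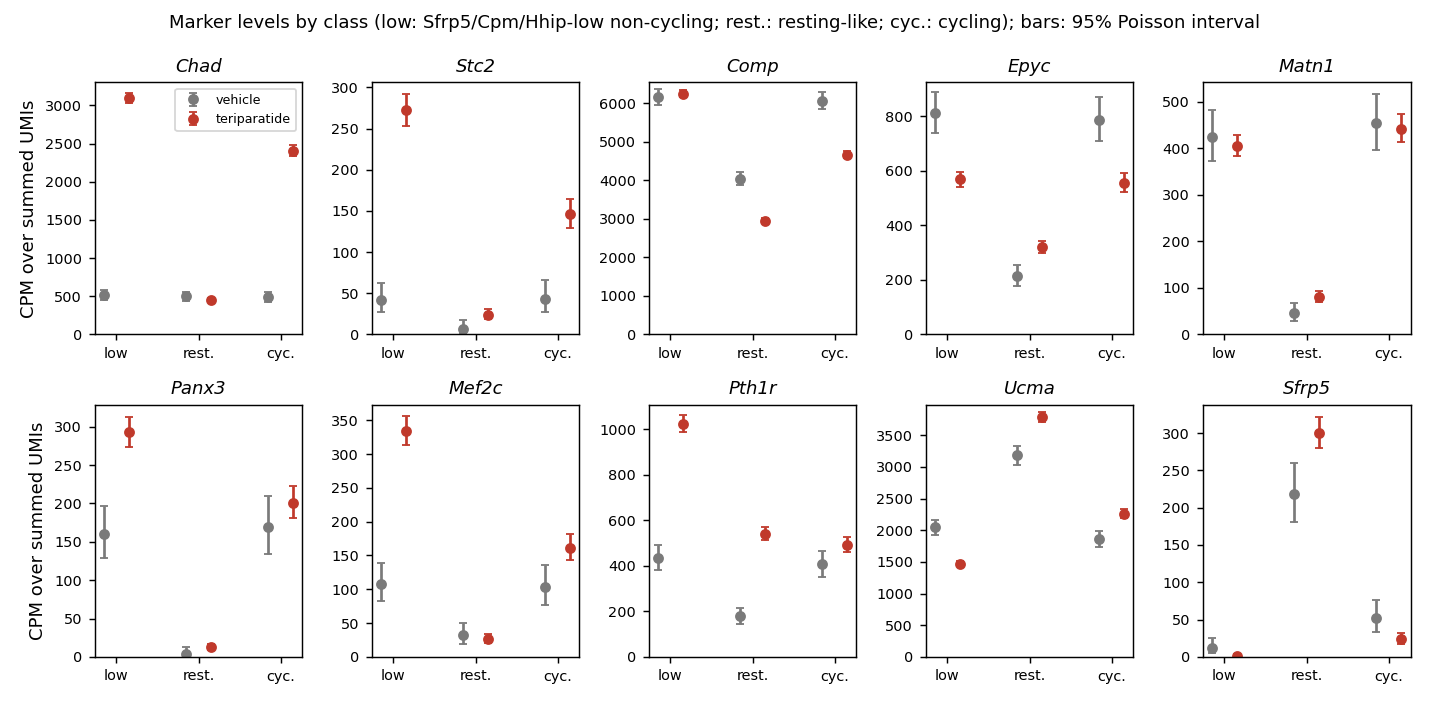
Levels of 10 marker genes in CPM over summed UMIs (vertical axes, each from 0) in Sfrp5/Cpm/Hhip-low (low), resting-like (rest.) and cycling (cyc.) chondrocyte-like cells of the vehicle (grey) and teriparatide (red) libraries, with 95% Poisson intervals. Chad is near 500 CPM in every vehicle class, while Comp, Epyc, Matn1 and Panx3 are higher in members than in resting-like cells of both libraries.

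Against resting-like cells, members of both libraries held more Panx3, Smpd3, Matn1 and Car12 and less Efemp1, Spon1, Igf1 and Apoe. Genes needed at least 50 UMIs in each library, a 2-fold ratio in the same direction in both, and intervals that left out 0. Of 2986 genes, 39 were higher (1.31%) and 77 lower (2.58%) in members. Because the rule split the cells on genes of the same counts, these values describe the split and test nothing.

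Panx3, a channel protein that appears as chondrocytes approach hypertrophy, stood highest in this comparison, with 160 CPM in vehicle members against 3.52 in resting-like cells and 293 against 12.3 in the teriparatide library (log2 ratios 5.51 and 4.58). Smpd3, which encodes the neutral sphingomyelinase needed for cartilage and bone mineralisation, had 199 against 19.3 CPM and 319 against 33.3 CPM. Matn1, a cartilage matrix adaptor protein, had 425 against 45.7 CPM and 406 against 80.9 CPM. Car12, Mest, Sgms2, Serpinf1, Fkbp11, Ppa1 and Col3a1 made up the rest of the 10 genes highest by the smaller of both ratios. Col3a1, a collagen of fibrous tissue, had 148 CPM in vehicle members on 85 UMIs from 5 of 17 cells, against 21.7 CPM in teriparatide members.

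The genes lowest in members began with Sfrp5 and Cpm, which the rule used. Beyond them stood Efemp1 (6.97 against 114 CPM in the vehicle and 4.07 against 65.5 in the teriparatide library), Spon1, Igf1, Apoe, Gas1, Cxcl14, Ccnd2 and Fbn1. Igf1, a growth factor of the growth plate, had 122 against 1811 CPM and 39.0 against 467 CPM. Apoe, a lipid carrier, had 321 against 3399 CPM and 187 against 3271 CPM. Of the resting zone list, leaving out Sfrp5, Cpm and Hhip, which fixed the split, 4 of 6 genes tested were lower in members (Apoe, Clu, Gas1 and Spon1) and none was higher. Over all genes tested, 2.58% were lower and 1.31% higher. Apoe and Clu are also secreted by many cell types outside cartilage. Ucma, which marks the upper growth plate, was lower without passing 2-fold in the vehicle library (2043 against 3181 CPM, log2 -0.64) and passed it in the teriparatide library (1471 against 3784 CPM, -1.36).

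Among the other lists, 4 of 22 glycolysis and hypoxia genes were higher in members (Car12, Eno1, Ndufa4l2 and Slc16a3) and none was lower, next to 1.31% and 2.58% over all genes tested. Of the prehypertrophic and hypertrophic list 3 of 10 were higher (Mef2c, Panx3 and Spp1), and for Spp1 and Mef2c the vehicle value hung on 1 cell. Without it vehicle members held 1.82 instead of 225 CPM of Spp1 and 56.7 instead of 108 CPM of Mef2c. All vehicle resting-like cells together held 58.0 and 31.7 CPM. Without their own highest cell, teriparatide members held 46.9 instead of 856 CPM of Spp1, and all resting-like cells there held 325 CPM. No resting-like cell was left out, so these values do not rank the classes. Panx3 had 131 instead of 160 CPM in vehicle members without the highest cell. Of the cartilage matrix list 1 of 22 was higher (Matn1) and 1 lower (Cilp2), a count that asks for the same direction in both libraries, so that Epyc (log2 1.92 and 0.83), Comp (0.61 and 1.08) and Chad (0.04 and 2.76) did not enter it. In the collagen folding and secretion list 1 of 24 was higher (Fkbp11) and 1 lower (Loxl2). None of 81 ribosomal protein, 70 oxidative phosphorylation, 20 stress and 16 unfolded protein response genes passed in either direction.

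Against cycling cells, with only 17 and 15 cells in the vehicle library, few genes passed in both libraries. Of 2744 genes tested, 5 were higher in members (0.182%) and 13 lower (0.474%). The lower genes were led by 2810417H13Rik, Stmn1, Cenpa and Rrm2, all genes of replication or mitosis (Rrm2 is 1 of the 11 genes of the rule), with Hmgb2, Cks2, Cks1b and H2afz after them, and Stmn1 stood at 6.97 against 237 CPM in the vehicle library and 14.9 against 374 CPM in the teriparatide library. Xist, which follows the sex of the cells, was also lower (0 against 120 CPM and 51.2 against 177 CPM). The 5 higher genes were F13a1, Spp1, Clu, Sgms2 and Atp6v0a4, of which F13a1, Spp1 and Clu were carried by few vehicle members. F13a1 was seen in 1 of 17, and 99.1% of the Clu UMIs lay in 5 cells. Without its highest cell Spp1 stood at 1.82 CPM, next to 20.6 CPM in vehicle cycling cells, of which none was left out. Several markers did not separate members from cycling cells in the vehicle library: the log2 ratio was 0.07 for Chad, 0.02 for Comp, 0.04 for Epyc, -0.09 for Matn1 and -0.08 for Panx3, and each interval included 0. Acan at 0.18 (0.08 to 0.28) and Col2a1 at 0.12 (0.09 to 0.15) had intervals above 0 but far under 2-fold. In the teriparatide library members held more Stc2 than cycling cells (272 and 146 CPM, log2 0.90, 0.70 to 1.10) and more Mef2c (335 and 162 CPM, 1.05, 0.86 to 1.24). There the ratio was also 2.12 for Ihh (1.68 to 2.6), 1.54 for Alpl (1.33 to 1.75), 1.49 for Ibsp and 1.06 for Pth1r. Of the teriparatide members' UMIs, 81.5% for Ihh and 97.2% for Ibsp lay in 5 cells. Spp1 at 856 CPM lay above the 76.0 CPM of cycling cells. It stood at 46.9 CPM without its highest member, with no cycling cell left out.

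Between treatments, the members of the teriparatide library held more Chad, Stc2, Mia and Timp3, and less of the glycolytic gene Pgk1 and the chaperone gene Hspa5. Of 5965 genes with at least 50 UMIs over both libraries, 256 were at least 2-fold higher (4.29%) and 245 at least 2-fold lower (4.11%) with an interval that left out 0. Of these calls, 234 of the 256 and 177 of the 245 had fewer than 50 UMIs in the vehicle library, as had 4440 of all genes tested. The median log2 ratio over all tested genes was -0.18, and when ratios were taken relative to that median, 361 genes were higher and 113 lower. In male cells alone, 255 of the 256 and all of the 245 had the same direction, although this leaves out only 8 teriparatide cells.

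The 10 genes with the highest ratios under the naming rule were Ibsp, Serpina1b, S100a8, Hist1h2ap, Ihh, Cd200, Gm7334, Mgst2, AW112010 and Mt2. Several rested on few cells. Ibsp, a bone matrix sialoprotein, had 1 UMI in vehicle members and 5243 UMIs in teriparatide members, 97.2% of them in 5 cells, and 69.9% of the Hist1h2ap UMIs lay in 5 cells as well. Cd200, a membrane glycoprotein, had 3 UMIs in 2 of 17 vehicle members and 320 UMIs in 46 of 93 teriparatide members (log2 4.38, 2.82 to 6.66). Mt2, a metallothionein that binds zinc, had 8 UMIs in 4 vehicle members and 604 UMIs in 35 teriparatide members, 66.4% of them in 5 cells (3.88, 2.89 to 5.10), and was higher in resting-like cells (98.5 and 375 CPM) and cycling cells (18.6 and 182 CPM) too. With no cell cycle gene allowed the Mt2 ratio in members was 2.04 (1.02 to 3.28).

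The 10 lowest were Gfod2, Rrad, Col3a1, Trabd2b, Prr7, Pmepa1, Arsi, Col8a2, Pgk1 and Ccnc. Pgk1, a glycolytic enzyme, stood at 453 CPM in vehicle members, with a UMI in 17 of 17, and at 115 CPM in teriparatide members (log2 -1.98, -2.22 to -1.74). It was lower in the same way in resting-like cells (260 and 47.9 CPM) and cycling cells (464 and 103 CPM). Pmepa1, a transmembrane inhibitor of TGF-beta signalling, stood at 324 and 70.9 CPM (-2.19, -2.48 to -1.90), with 83.9% of the vehicle UMIs in 5 cells and median cells at 96.0 and 44.7 CPM. Gfod2 had 64 UMIs in 6 vehicle members and 9 UMIs in 9 teriparatide members.

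The prehypertrophic and hypertrophic list had many called genes under the rule, and this count hung on a few cells. Of 17 tested, 8 were higher in teriparatide members (Alpl, Col10a1, Ibsp, Ihh, Mef2c, Mmp13, Pth1r and Spp1) and 1 lower (Vegfa), with a median log2 ratio of 0.87 against -0.18 over all genes. Over all genes tested the shares were 4.29% and 4.11%. Of the 8, Mef2c, Pth1r and Spp1 had 50 UMIs in the vehicle library and the other 5 reached that minimum through the teriparatide library. In 1 cell lay 94.6% of the teriparatide Spp1 UMIs, and without its highest cell the vehicle level of Spp1 was 1.82 CPM. Ihh, the hedgehog ligand of prehypertrophic cells, had no UMI in the 17 vehicle members and 325 UMIs in 20 of the 93 teriparatide members (110 CPM). Its ratio was 21.1-fold with the vehicle value set at 3 UMIs, and its interval began at log2 4.09. The share of members with an Ihh UMI was 0 of 17 with vehicle (Clopper-Pearson interval 0 to 19.5%) and 21.5% with teriparatide (13.7 to 31.2), a difference of 21.5 points (Newcombe interval 1.74 to 30.9), and 0 of 35 vehicle and 0.725% of 138 teriparatide erythroid cells held an Ihh UMI. Col10a1, whose level the rule caps, had 0 and 83 UMIs. With the vehicle value set at 3 UMIs it was 5.38-fold higher, which lies above the lower end of its interval. Alpl, the phosphatase of mineralising cells, had 14 and 1054 UMIs (log2 3.87, 3.12 to 4.75), and Mef2c, a transcription factor of hypertrophy, 62 and 986 UMIs (1.63, 1.26 to 2.02).

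The upper limit on genes had removed 2 vehicle cells that met every other condition of the rule, both male. One had 6402 genes, 69190 UMIs, 911 CPM of Ihh, 4553 CPM of Pth1r and 1142 CPM of Alpl, and the other had 6048 genes, 46138 UMIs, 5375 CPM of Ibsp and 824 CPM of Alpl. In the teriparatide library the same limit had removed 1 such cell. With these cells in, the list had 2 genes higher and 2 lower of 17, and the ratios were 0.29 for Ihh, 0.92 for Alpl, 0.25 for Mef2c, 0.36 for Mmp13 and 0.14 for Pth1r, none of them called, while Col10a1 was lower (-1.45). The 1 vehicle and 47 teriparatide members with a UMI of Col10a1, Ihh or Ibsp were also left out, a setting that removes cells by genes of the list and so cannot bear on its count. Spp1 turned from 1.93 to -2.94 in that setting, where its vehicle level still hung on 1 cell. Chad and Stc2 were called in both settings, at 2.45 and 2.18 without the gene limit and at 2.69 and 2.62 without the cells that held those UMIs.

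**Figure D3:**
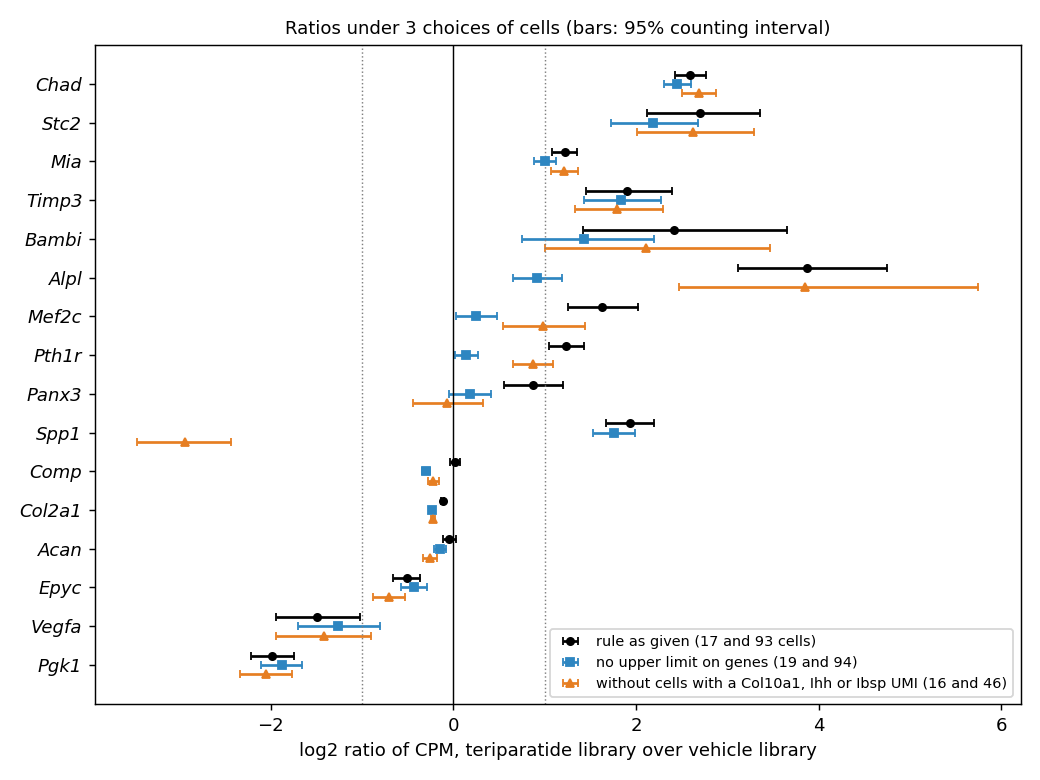
Log2 ratios of CPM, teriparatide over vehicle (horizontal axis), for 16 genes in members under the rule (black circles), without its upper limit on genes (blue squares) and without members that held a UMI of Col10a1, Ihh or Ibsp (orange triangles), with 95% counting intervals and dotted lines at 2-fold. Chad, Stc2, Mia, Timp3 and Bambi lie at or above 1 in all 3 settings and Pgk1 and Vegfa below -1, while Alpl, Mef2c and Pth1r move to between 0 and 1 without the gene limit.

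Pth1r, the receptor of the injected hormone, was seen in every member of both libraries. It stood at 436 CPM (384 to 493) in vehicle and 1025 CPM (988 to 1062) in teriparatide members, a log2 ratio of 1.23 (1.05 to 1.42). Vehicle members ran from 34.2 to 1188 CPM with a median of 277, and teriparatide members from 107 to 5098 CPM with a median of 558, so the ranges overlapped and 23 teriparatide cells lay above the highest vehicle cell. The ratio was 1.28 in male cells, but lifting the gene limit, which added 2 vehicle cells and 1 teriparatide cell, brought it to 0.14 (0.02 to 0.26). In resting-like cells, Pth1r stood at 178 and 540 CPM (1.60, 1.31 to 1.91), and in cycling cells at 406 and 492 CPM (0.28, 0.05 to 0.50). No other gene of the 16 tested from the PTH receptor and cAMP response list passed 2-fold under the rule, and relative to the median of all genes Sik3 and Dusp1 did.

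Of the hedgehog, IGF, FGF and BMP lists, 1 of 4, 1 of 7, 1 of 6 and 5 of 21 tested genes were called, next to 4.29% higher and 4.11% lower over all genes. Gli1, the hedgehog target that drives the Cre of these mice, was sparse, at 10.5 CPM in 3 of 17 vehicle members and 9.84 CPM in 23 of 93 teriparatide members. Ptch1, the hedgehog receptor and target, stood at 206 and 191 CPM with a log2 ratio of -0.11 (-0.40 to 0.19). Ihh was the 1 hedgehog gene of 4 tested that was called, and no longer once the 2 vehicle cells over the gene limit were in. Of the 7 IGF genes tested, Igf1 was lower (122 and 39.0 CPM, -1.64, -2.09 to -1.20), on 4 of 17 and 6 of 93 cells. Irs2 was not called under the rule. It was called higher relative to the median of all genes, in male cells and in both settings of cells above. With no cell cycle gene allowed, Irs1 was higher and Igf1 was not called. The receptor Igf1r had a ratio of 0.39 (-0.00 to 0.81). Under the alternatives its ratio ran from 0.43 to 0.65, with lower limits above 0. In resting-like cells it was 0.59 (0.13 to 1.07) and in cycling cells -0.08 (-0.49 to 0.35). Of the 6 FGF genes, Etv5, a transcription factor induced by FGF, was lower (31.4 and 13.6 CPM, -1.21, -2.05 to -0.32).

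In the BMP and TGF-beta list 4 of 21 genes were higher (Bambi, Chrdl1, Grem1 and Id1) and 1 was lower (Tgfbi). Of the higher genes only Id1 had 50 UMIs in the vehicle library (65), and in male cells Id1 was not called. Bambi, a decoy receptor, had 8 UMIs in 7 vehicle members and 220 UMIs in 65 teriparatide members (log2 2.42, 1.42 to 3.65), and kept its call in male cells and in both settings of cells above (1.43 and 2.11). Grem1, a secreted BMP inhibitor, had 0 and 51 UMIs, but those lay in 3 of 93 cells. Chrdl1 at 0.72 and Id1 at 0.73 fell short of 2-fold once the gene limit was lifted.

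Most cartilage matrix genes stayed within 2-fold. Of 21 cartilage matrix genes tested, 2 were higher (Chad and Mia), 1 was lower (Matn4) and the median log2 ratio was -0.10. The shares over all genes tested, beside which the counts of this paragraph stand, were 4.29% higher and 4.11% lower. Mia, a small secreted cartilage protein, stood at 785 CPM in vehicle and 1823 CPM in teriparatide members (1.22, 1.08 to 1.36), and was higher in resting-like cells too (935 and 1746 CPM). Of the 14 matrix degradation genes, Timp3, an inhibitor of matrix proteases, was higher (71.5 and 268 CPM, 1.91, 1.45 to 2.40) with a UMI in 7 of 17 and 82 of 93 cells. Mmp13 was higher on 2 and 9 cells, and Adamts1 was lower. Timp3 (41 UMIs), Mmp13 (38) and Adamts1 (28) had fewer than 50 UMIs in vehicle members. None of 20 stress and immediate early genes was called in either direction, and of 15 chondrocyte transcription factors only Runx1 was, lower at 75 and 35.3 CPM. Relative to the median of all genes neither Matn4 (-0.89) nor Runx1 (-0.91) was called.

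The unfolded protein response and glycolysis lists had summed levels that were lower in the teriparatide library in resting-like and cycling cells too. Unfolded protein response genes summed to 7793 and 4177 CPM in resting-like cells and to 7249 and 4724 CPM in cycling cells. Glycolysis and hypoxia genes summed to 7356 and 4285 CPM in resting-like cells and to 11779 and 6970 CPM in cycling cells. In the unfolded protein response list 4 of 19 genes were lower (Asns, Hspa5, Pdia3 and Sdf2l1), none was higher and the median was -0.59. Hspa5, the main chaperone of the endoplasmic reticulum, was seen in all members of both libraries at 1337 and 641 CPM (-1.06, -1.18 to -0.94), and resting-like cells had 1581 and 525 CPM. In the glycolysis and hypoxia list 4 of 24 were lower (Pfkl, Pgk1, Slc16a3 and Vegfa), none higher, with a median of -0.61. Relative to the median of all genes, 1 unfolded protein response gene (Asns) and 3 glycolysis genes (Pgk1, Slc16a3 and Vegfa) were still called lower, and Hspa5 at -0.88 and Pdia3 at -0.83 were not. Collagen folding and secretion had 2 of 26 lower (Loxl2 and Sec13) and sulfation 2 of 20 (B4galt7 and Chst15), next to 4.11% over all genes, and relative to the median of all genes only Loxl2 of these was called. The ribosomal list had 2 higher (Rps27 and Rps28) and 1 lower (Rpl29) of 82 with a median of 0.11, and oxidative phosphorylation 1 lower (Sdhb) of 74 with a median of -0.10. Ribosomal genes numbered 6 higher and 0 lower relative to the median of all genes, and oxidative phosphorylation genes 2 higher and 0 lower. Over all 5965 genes that setting gave 361 higher and 113 lower. The resting zone list, which holds the 3 genes of the rule, had 2 higher (Foxa2 and Grem1) and 2 lower (Clu and Hhip) of 8. Foxa2 (4 and 58 UMIs) and Grem1 (0 and 51) reached 50 UMIs through the teriparatide library, Foxa2 fell to 0.22 without the gene limit, and neither lower call held in male cells, relative to the median of all genes or without the gene limit. Of the 11 tested cell cycle genes outside the rule none was called.

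**Figure D4:**
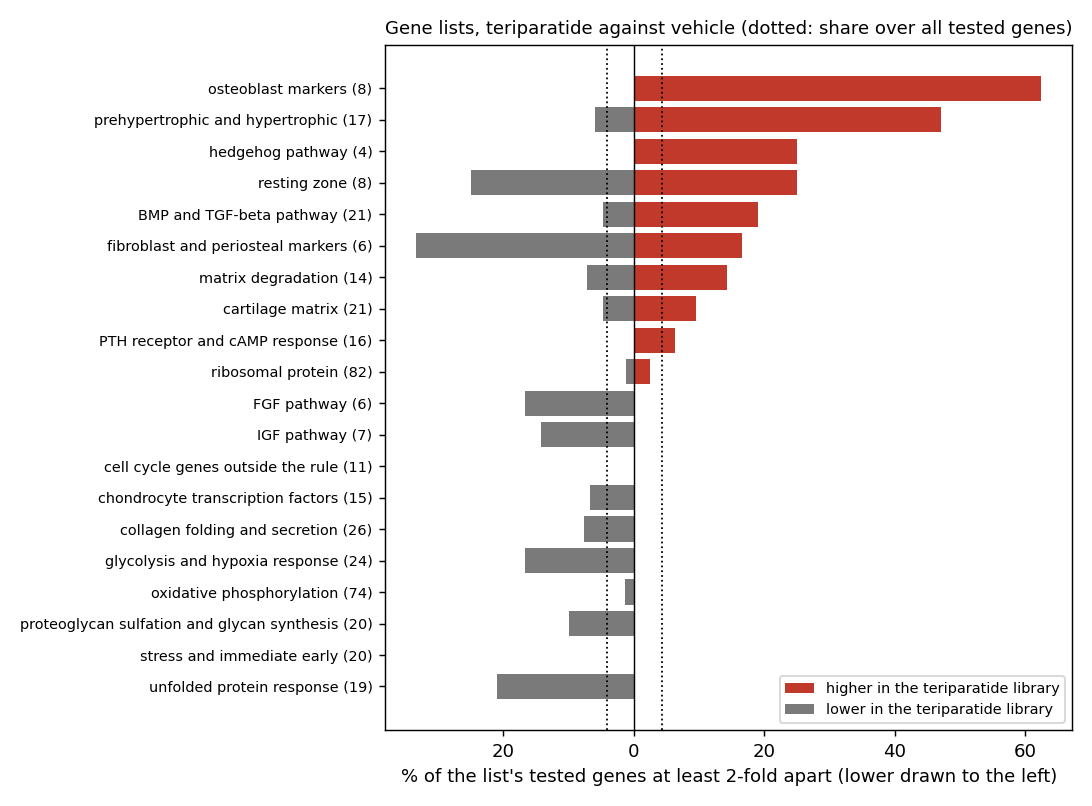
Share of each gene list's tested genes (number in parentheses) that were at least 2-fold higher (red, to the right) or lower (grey, to the left, percent on the horizontal axis) in teriparatide than in vehicle members, with dotted lines at the shares over all tested genes, 4.29% and 4.11%. The prehypertrophic list has 8 of 17 genes higher under the rule, a count that fell to 2 when the upper limit on genes was lifted, and the unfolded protein response and glycolysis lists have only lower genes.

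Among markers of other cell types, the erythroid sum and the neutrophil and monocyte sum were higher in the teriparatide library. Summed erythroid markers stood at 13.9 CPM in vehicle and 82.8 CPM in teriparatide members, with Hbb-bs the most abundant (6.97 and 41.1 CPM) 10 and 6 of the 14 markers at 0, and Klf1, Epor, Rhag, Gfi1b, Tspo2 and Car1 at 0 in both. Neutrophil and monocyte markers stood at 8.72 and 127 CPM, with S100a9 (6.97 CPM) and S100a8 (49.2 CPM) the most abundant, 12 and 3 of the 14 markers at 0, and Ptprc, which the rule sets at 0, Ccr2 and Csf1r at 0 in both. Resting-like cells carried like sums, 24.6 and 89.3 CPM for erythroid and 10.6 and 153 CPM for neutrophil and monocyte markers. Of kept cells, 6.38% and 11.3% were erythroid by their own markers. Endothelial markers were near 0 (3.49 and 3.05 CPM, with Cdh5, Kdr, Emcn, Flt1 and Tek at 0 in both). Marrow adipogenic markers summed to 22.7 and 21.0 CPM, articular and synovial markers to 45.3 and 37.7 CPM and preosteoblast markers to 57.5 and 77.4 CPM.

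Osteoblast markers summed to 922 CPM in vehicle and 3856 CPM in teriparatide members, and 5 of 8 tested were higher (Alpl, Bglap, Bglap2, Ibsp and Spp1) and none lower, next to 4.29% and 4.11% over all genes. Of the 5 only Spp1 had 50 UMIs in the vehicle library, and with no cell cycle gene allowed it turned lower (-3.37, on 128 and 55 UMIs). Its vehicle level hung on 1 cell, without which it was 1.82 instead of 225 CPM. Ibsp, Spp1 and Alpl are also on the prehypertrophic list and rested on the cells described there, Mepe was at 0 in both libraries and Dmp1 and Phex were at 0 in the vehicle library. Col1a1, the main bone collagen, stood at 101 and 68.9 CPM, and Bglap (osteocalcin) at 61.0 and 234 CPM (1.94, 1.45 to 2.47). Fibroblast and periosteal markers summed to 1740 and 2008 CPM with Lum (607 CPM) and Col6a1 (982 CPM) the most abundant, Ly6a higher and Col3a1 and Igf1 lower of 6 tested, and Thy1, Pi16, Dpt and Mfap5 at 0 in both. The part of such RNA in the ratios of other genes was not tested.

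Over the members of each library, Chad was set beside the genes seen in enough cells to compare. On cells thinned to 5000 UMIs (17 vehicle and 92 teriparatide members), 588 genes seen in at least 50% of the thinned members of each library were ranked by the smaller of their Spearman rho with Chad. Over all 588, rho ran from -0.83 to 0.65 with vehicle (median -0.06) and from -0.54 to 0.70 with teriparatide (median -0.06). The genes named are the ends of this ranking. Most alike were Col6a3 (rho 0.48 with vehicle and 0.42 with teriparatide), Cst3 (0.34 and 0.70), Ccdc80 (0.37 and 0.30), Npc2 and Itm2b, followed by Ctgf, Pam, Zfp36l2, Tsc22d3 and Ahnak. Col6a3 encodes a chain of collagen VI, which surrounds chondrocytes. Most opposed were C1qtnf3 (-0.49 and -0.54), a secreted protein of proliferating cartilage, Ybx1 (-0.51 and -0.43) and Matn3 (-0.44 and -0.36), followed by Sep15, Eef1g, Dbi, Tmem167, Col9a3, Ift20 and P4hb. The cells of a library share one capture, and with 17 vehicle cells a rho of this size is a description of these cells only.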

How the data were processed

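The deposited files were 1 gene-by-barcode matrix of raw UMI counts per library, which the authors made with Cell Ranger (version 2.1.0 in the submitters' processing notes, while the matrix headers give software version 3.1.0) on mm10. Barcodes not associated with cells were removed by Cell Ranger, per the study's methods. Feature lists were identical (27998 genes, 27722 found in GENCODE vM21), no column of per-sample values was left unused, and tdTomato was not among the genes.

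Members, resting-like and cycling cells were assigned by the limits given in the text. The members, lists and comparisons were chosen with earlier results of these data known. For each class and library UMIs were added up and given as CPM (counts per 1000000 UMIs) with exact Poisson intervals, shares with Clopper-Pearson intervals, differences of shares with Newcombe intervals, and ratios with the exact conditional binomial interval. A gene was called at 2-fold or more with an interval that left out 0. A count of 0 was replaced by 3 counts per library to give a ratio, which can lie above the lower end of the interval. With 1 library per treatment no p-value was computed. Genes were named as the 10 highest and 10 lowest ratios with a UMI in at least 10% of members of the higher library and the same direction in male cells. The rule also asked for female cells, which the vehicle members lacked. Cell Ranger counts uniquely mapped reads, so genes with near-identical copies (Hba-a1, Rps27, Pgk1) are uncertain. Doublets were left in. Scrublet (scanpy 1.11.5, seed 7) called 3 of 549 vehicle and 0 of 1217 teriparatide kept cells, and no member. The calculation of the ratio and its interval was run on simulated Poisson counts. These had no spread between cells or libraries, so they cannot show how calls that rest on few cells hold. Python 3.11.15, numpy 2.4.6, scipy 1.17.1 and pandas 2.3.3 were used.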

Additional observations from a re-analysis of the deposited data

Results flagged for a closer look

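Several genes had ratios of teriparatide over vehicle on opposite sides of 0 in members and in resting-like cells. Chad was 2.59 on the log2 scale in members and -0.13 in resting-like cells, a gap of 2.72. Mef2c was 1.63 and -0.26, a gap of 1.89. Alpl was 3.87 and -0.14, a gap of 4.01. Ibsp was 10.00 and -3.07, a gap of 13.1, on 1 UMI in vehicle members and on 64 UMIs from 1 vehicle resting-like cell. Cycling cells went the same way as members, at 2.29 for Chad, 0.65 for Mef2c, 2.31 for Alpl and 8.26 for Ibsp. With 1 library per treatment the differences between classes were not tested. The resting-like interval included 0 for Chad, Mef2c and Alpl. Without the upper limit on genes the members' ratios were 2.45 for Chad, 0.25 for Mef2c, 0.92 for Alpl and 2.28 for Ibsp.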

How the results depend on the processing

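No paired analysis was possible because each treatment had 1 library. Of 138 values under 16 alternatives, 99 stayed within their interval (or within 1.5 times for a gene count) and 39 moved, none with a change of sign. The 2 settings that left out members with a UMI of Col10a1, Ihh or Ibsp, or the cell highest in Chad, were chosen after seeing the data, as was leaving out the member highest in Spp1. The vehicle values rest on 17 cells.

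The share of members (3.1% and 7.64%) was 7.98% and 11.8% in male cells, 0% and 3.82% in female cells, and with no cell cycle gene allowed 4.03% in the teriparatide library with a difference of 2.20 points. Chad in vehicle members (514 CPM) was 711 with Sfrp5, Cpm and Hhip under 1 per 10000, 706 thinned, 582 as a mean over cells and 347 without the highest cell. In teriparatide members (3100 CPM) it was 3223 with Acan at 10 or more, 3188 with Col10a1 under 2, 2781 with no cycle gene, 3176 with the resting sum under 1, 3204 thinned, 3214 in male and 1885 in female cells, and 3355 as a mean over cells. The Pth1r ratio (1.23) was 0.14 without the upper gene limit, 1.94 with no cycle gene and 0.87 without members with a UMI of Col10a1, Ihh or Ibsp. The female-only setting gave no ratio, since the vehicle library had no female member.

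Gene counts between treatments (256 higher, 245 lower) were 69 and 83 thinned. Lower genes were 113 under median ratio scaling, 443 at 20 UMIs or more and 564 with 1 UMI or more. Against resting-like cells (39 and 77) they were 9 and 18 thinned and 65 and 138 at 20 UMIs. Against cycling cells (5 and 13) they were 11 and 50 without the gene limit and 8 and 48 at 20 UMIs. Higher genes alone were 3 with Acan at 10 or more, 3 with Col10a1 under 2, 2 with no cycle gene and 8 with the resting sum under 1, and lower genes 1 thinned. Thinning leaves fewer UMIs and fewer genes tested. The cause of the other moves was not tested.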

Other observations

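Of 16 clock genes, listed after values of some had been seen, 10 could be tested between treatments in members and 5 were at least 2-fold higher (Dbp, Nr1d1, Nr1d2, Per1 and Tef), none lower, next to 4.29% and 4.11% over all genes. Dbp, an output gene of the clock, had 0 UMIs in vehicle and 60 in teriparatide members, and Nr1d1, a repressor within the clock, stood at 3.49 and 46.5 CPM. Tef stood at 5.23 and 19 CPM, while Arntl, the activator of the clock, stood at 27.9 and 14.9 CPM and was not called. Each of the 5 higher genes reached 50 UMIs through the teriparatide library. Resting-like cells had 3.52 and 18.8 CPM of Nr1d1 and 36.9 and 21.5 CPM of Arntl. Tsc22d3, a single gene also picked after its values were seen, stood at 225 CPM in vehicle and 693 CPM in teriparatide members, with log2 ratios of 1.43 to 1.94 over the 5 alternatives run for it. Mt1, a metallothionein, stood at 69.7 and 538 CPM in members, 169 and 1317 CPM in resting-like cells and 115 and 581 CPM in cycling cells. Its log2 ratio in members was 2.95 under the rule. Over the alternatives it ran from 1.40, with no cell cycle gene allowed, to 3.58. The hour of injection or collection is not given in the sources used here.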
